A study of Arabidopsis thaliana with 6 samples.

Results

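The transcripts described here are those with a higher signal in flowers that overexpress miR159a than in wild-type flowers. They were chosen by the signals themselves: a probe set, the group of short probes that reads 1 transcript on the array, was taken where the mean of the 3 overexpressor arrays was at least 1.7 times the mean of the 3 wild-type arrays, where that overexpressor mean was 100 or more, and where the lowest overexpressor signal lay above the highest wild-type signal. Of 22746 probe sets other than controls, 65 met these thresholds, and 9 of them, read from genes such as QQS, were left out by name, which left 56. Because the comparison of the groups chose them, their differences between the groups are a description and carry no test.

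Both groups were stage 15 flowers of Arabidopsis thaliana, with 3 arrays from Columbia wild type and 3 from transgenic plants overexpressing miR159a, and each group carried the letters a, b and c. The labels name neither the promoter of the transgene nor the number of plant lines, and nothing in them ties a letter to a plant or a culture, so the spread between arrays, on which every p-value rests, may be technical. The signals are linear intensities, 1 per probe set and array, at a similar level on all arrays. Whether and how the authors scaled them is not named in any source used here. In whole flowers, fewer cells of a type and less RNA per cell cannot be told apart.

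MicroRNAs of the miR159 family pair with the transcripts of MYB transcription factors related to the gibberellin-responsive GAMYB proteins and lead to their cleavage. These MYB factors act in anthers, among other tissues, and plants that overexpress miR159a are known for poor anther development and reduced male fertility. At the stage sampled, a flower has already opened, so its RNA comes from sepals, petals, stamens, pollen and a pistil ready for or past pollination.

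A single gene was named for 30 of the 56 probe sets, 3 listed several genes and 23 are unnamed here. Of the 30 genes, 5 had a symbol of their own (MSRB5, OCT1, SWEET3, TBL26 and AGO7) and 25 are known by their locus. The ratios of the mean signals ran from 1.705 to 5.07 with a median of 1.89, and the ratio was under 2 for most: 22 of the 56 reached a ratio of 2, 10 reached 2.5 and 4 reached 3. Mean signals ran from 22.4 to 959.9 in wild type and from 106 to 1879 in the overexpressor. In wild type, 25 of the 56 had a mean under 100 and 8 a mean over 500.

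Among probe sets with differences large enough for the thresholds, higher signals were the rarer direction. The thresholds were met by 0.286% of the 22746 probe sets, while 433 probe sets, or 1.9%, met the same thresholds in the opposite direction. All 3 overexpressor arrays lay above all 3 wild-type arrays for 8.64% of the 10939 probe sets with an overexpressor mean of 100 or more, so that separation alone was far more common than meeting all the thresholds. In the plot of mean signals, the 56 lie as a thin band just above the line of the ratio, and a much larger cloud of points lies below the diagonal.

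**Figure D1:**
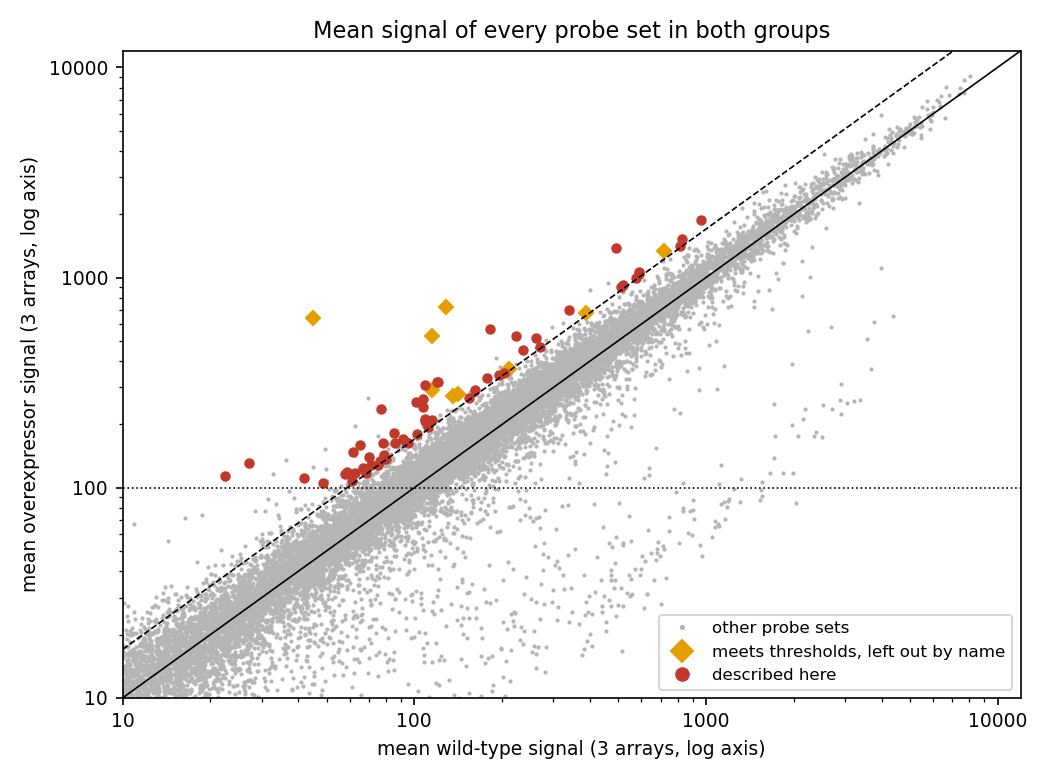
Mean signal of each probe set in wild type (x axis) and in the overexpressor (y axis), over 3 arrays each and on log axes. Red points are the 56 probe sets described here, orange diamonds the 9 left out by name and grey points the others with both means of at least 10; the solid line marks equal means, the dashed line a ratio of 1.7 and the dotted line an overexpressor mean of 100.

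The 30 genes were grouped by what their proteins are known or annotated to be, after their values were seen. The groups hold 5 genes for enzymes of walls and polysaccharides or their inhibitors, 4 for transporters and 2 for redox enzymes. They also hold 4 for transferases and esterases of small molecules and 4 for secreted or wall-associated proteins. A further 5 are mixed, with functions in RNA, protein or plastids beside a WD40-repeat protein and a jacalin-type lectin. For the other 6 no role is given here.

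Among the transporters, OCT1, which encodes an organic cation and carnitine transporter, was the most clearly separated of the named genes. Its signals were 539, 512 and 419.6 on wild-type arrays a, b and c and 1406, 1168 and 1576 on the overexpressor arrays. The lowest overexpressor signal was 2.17 times the highest wild-type signal, and the group means, 490.1 ± 62.5 and 1384 ± 205 (SD, n = 3), had a ratio of 2.82.

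SWEET3, a member of the SWEET family of sugar transporters, read 80.9, 60.5 and 54.7 in wild type and 162, 148 and 170.2 in the overexpressor. Its overexpressor arrays were close to each other, with a mean of 160.0 ± 11.5 (SD, n = 3) against 65.4 ± 13.8 and a ratio of 2.45. AT5G62730, of the family of nitrate and peptide transporters, read 61.5, 85.4 and 108 in wild type against 109, 276 and 160.2. Here the groups nearly touched, since overexpressor array a lay only just above wild-type array c. AT5G18840, of the ERD6-like sugar transporters, read 73.3, 65.1 and 48.9 against 107, 115 and 132, a ratio of 1.89 with a clear gap between the groups.

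Relatives of these transporters were read from lists of family members, and their differences are given on the scale log2(signal + 16), overexpressor minus wild type, with limma's two-sided test over all 17059 tested probe sets, of which 0.135% were called higher and 2.17% lower at an adjusted p under 0.05. Of 3 tested organic cation transporter genes, the fit called 1 higher, OCT1, and 0 lower; the list median was 0.34, against 0.04 over all tested probe sets. OCT4 had a difference of -0.69 (SE 0.17, limma adjusted p = 0.117, unadjusted p under 0.05) and OCT5 of 0.34 (adjusted p = 0.755), in opposite directions. Of 15 tested SWEET genes, 1 was called higher, again the one already chosen, and 0 lower, with a median of 0.09. The call of OCT1 was lost without wild-type replicate b and without both arrays lettered a, and that of SWEET3 without wild-type replicate b or c or overexpressor replicate a or c. The closest to the threshold among the others, SWEET1, SWEET7, SWEET9 and SWEET10, had differences of 0.63, 0.52, -0.39 and 0.42 with limma adjusted p of 0.568, 0.615, 0.653 and 0.784. SWEET9 is the sugar exporter of nectaries. OCT1 and SWEET3 were chosen on this contrast, so neither their calls nor the list medians that include them are a separate result.

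The wall group covered ratios from 1.94 to 2.65. AT1G56100 encodes a protein of the invertase and pectin methylesterase inhibitor family, whose members restrain enzymes that act on sucrose or pectin. It read 133, 119.6 and 107 in wild type and 346, 207 and 400.2 in the overexpressor, with a ratio of 2.65. All overexpressor arrays were well clear of wild type, although array b read well below array c. A second gene of that inhibitor family, AT1G23205, read 126, 90.1 and 111 against 259, 143 and 233, and on its array b the overexpressor came close to the highest wild-type array.

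AT3G45940, of glycosyl hydrolase family 31, in which alpha-xylosidases trim xyloglucan, read 107, 146 and 69 against 265, 239.9 and 225. The overexpressor arrays were level, with a mean of 243 ± 20.5 (SD, n = 3), while wild type varied more, with 107 ± 38.3. AT3G19620, a beta-xylosidase-like glycosyl hydrolase gene, showed the same layout, with 60.0, 54.0 and 121 in wild type, where array c was high, and 140.1, 170.2 and 177 in the overexpressor. TBL26 belongs to the TRICHOME BIREFRINGENCE-LIKE family, which adds acetyl groups to wall polysaccharides. It read 449, 237 and 333 against 978, 529 and 601, and array a was the highest array of both groups. Of 17 tested genes with a TBL symbol, 0 passed the limma threshold in either direction and 1 had an unadjusted p under 0.05; their differences ran from -0.35 to 1.01, the highest being TBL26. With the letter as a replicate block 1 was called, TBL26 itself.

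The redox enzymes differed in layout from each other. MSRB5, a methionine sulfoxide reductase that repairs oxidised methionine in proteins, read 105, 53.0 and 72.4 in wild type and 403, 192 and 117 in the overexpressor. Its ratio of 3.09 was the largest of the 30 named genes, but the overexpressor arrays were spread widely and array c lay just above wild-type array a. AT1G44970, a class III peroxidase gene, read 953, 802 and 1124 against 1263, 2030.1 and 2343, with overexpressor arrays b and c far above wild type and array a only a little above it. Class III peroxidases are secreted enzymes that can stiffen or loosen walls. The means of this peroxidase gene were 959.9 ± 161 and 1879 ± 556 (SD, n = 3).

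**Figure D2:**
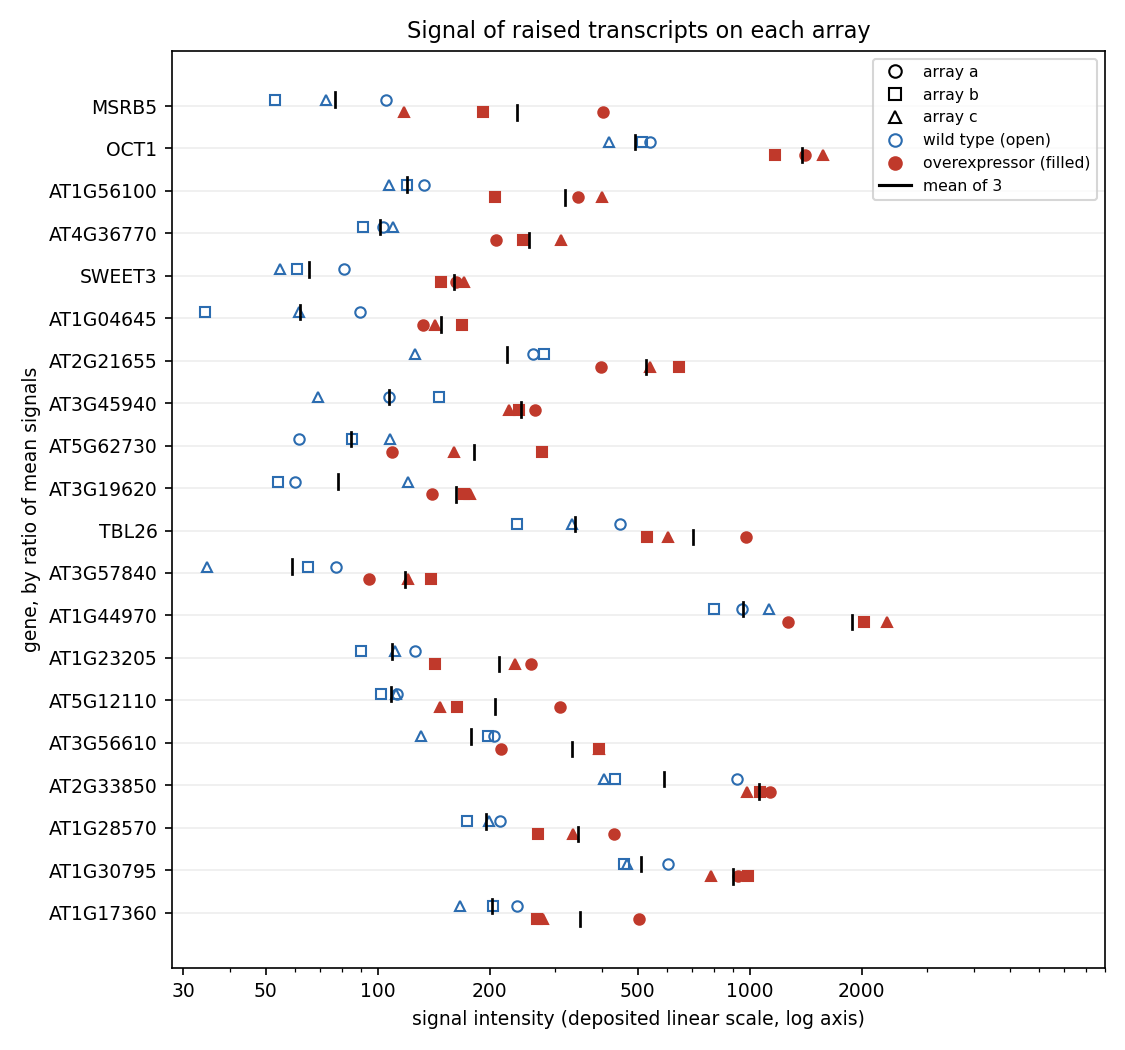
Signal intensity (x axis, log scale) of 20 named genes on each array, ordered by the ratio of group means (y axis). Open blue symbols are wild type, filled red symbols the overexpressor, the shape gives the letter and the black bar the mean of 3; OCT1, SWEET3 and AT4G36770 show a wide gap between the groups, while for MSRB5, AT5G62730 and AT3G56610 the groups nearly touch.

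AT4G36770 encodes a glycosyltransferase of the UGT72 group, which attaches sugars to small phenolic molecules. Its signals were 103, 91.4 and 109.6 in wild type and 208, 245 and 312 in the overexpressor, with tight wild-type arrays (101 ± 9.22, SD, n = 3) and a ratio of 2.51. Of 4 tested UGT72 genes, 1 was called higher, AT4G36770 itself, and 0 lower, with a median of 0.40. Over all tested probe sets, 0.135% were called higher and 2.17% lower. AT4G36770 was chosen on this contrast, so neither its call nor the median that includes it is a separate result. No UGT72 gene was called without wild-type replicate a, wild-type replicate b, overexpressor replicate c or both arrays lettered a. UGT72E2, UGT72E3 and UGT72B1 had differences of 0.26, 0.50 and 0.30 on the log2(signal + 16) scale (limma adjusted p of 0.841, 0.8 and 0.968).

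The GDSL-type esterase and lipase genes AT1G28570 and AT5G14450 had ratios of 1.77 and 1.71. AT1G28570 read 213, 173 and 199 in wild type and 433, 269.7 and 334 in the overexpressor, where array a was the highest. AT5G14450 read 68.2, 109.8 and 107 against 133, 153 and 202, with array c the highest. AT3G50270, of the BAHD acyltransferases, read 85.5, 65.1 and 63.3 against 138, 150.4 and 94.7, and its overexpressor array c lay just above wild-type array a.

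Small secreted proteins formed another group. AT1G04645 and AT3G57840 belong to the plant self-incompatibility protein S1 family, named after a pistil protein of poppy that stops self pollen; most Arabidopsis members have no known role. AT1G04645 read 89.4, 34.4 and 61.5 in wild type and 132, 168 and 142 in the overexpressor. AT3G57840 read 77.3, 64.9 and 34.7 against 94.9, 139 and 121. Both were lowest on array a among the overexpressor arrays and highest on array a among the wild-type arrays, so the groups came closest on that letter.

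AT2G33850, known as E6-LIKE 1 and expressed in the stigma, the pollen-receiving surface of the pistil, read 922, 434 and 407 in wild type and 1134, 1064 and 982 in the overexpressor. The overexpressor arrays were level (1059.9 ± 76.2, SD, n = 3), but wild-type array a was far above the other wild-type arrays and nearly reached the overexpressor. AT1G30795, a glycine-rich protein gene, read 603, 459 and 469 against 928, 988 and 785, with both groups fairly tight and a ratio of 1.76.

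AGO7 encodes the Argonaute protein that loads miR390 and starts the production of small RNAs from TAS3, which restrain auxin response factors. It read 82.9, 117 and 144 in wild type and 217, 176 and 238 in the overexpressor, with means of 115 ± 30.5 and 210.4 ± 32.0 (SD, n = 3) and a ratio of 1.84. AT5G12110, a beta subunit gene of translation elongation factor eEF1B, read 112, 102 and 112 against 309.5, 163 and 147; array a alone stood high in the overexpressor. AT5G52780, related to the plastid assembly factor PAM68, read 84.7, 196 and 203 against 274, 257 and 349, with wild-type array a far below the other wild-type arrays.

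The WD40-repeat protein gene AT1G49450 read 77.3, 66.2 and 93.2 in wild type and 138, 146 and 147 in the overexpressor, where the arrays were nearly level. AT1G73040, a jacalin-type lectin gene, read 59.0, 114 and 101 against 134, 183 and 198. In both genes the groups stayed apart, with the lowest overexpressor signal 1.48 and 1.17 times the highest wild-type signal.

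The 6 genes without a role given here had ratios from 1.72 to 2.37. AT2G21655 read 262, 279 and 126 in wild type and 397, 643 and 540.3 in the overexpressor. AT3G56610 read 205, 198 and 131 against 214, 394 and 393, so that array a hardly differed between the groups while b and c did. AT5G22970 had the same layout, with 205, 146 and 112 against 210.0, 289.5 and 303. It lies directly beside scpl47, a serine carboxypeptidase-like gene that met the same thresholds and was left out by name, and this was the only pair of the named genes meeting the thresholds with at most 2 protein-coding genes between them. AT1G17360 read 237, 204 and 167 against 504, 269 and 278, with array a high. AT1G27030, with a ratio of 1.77, read 48.7, 80 and 54.3 in wild type and 126, 94.4 and 104 in the overexpressor, and array a was again the highest. AT1G47470 read 78.9, 77.2 and 49.3 against 112, 136 and 105, with a ratio of 1.72 and array b the highest.

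The 26 probe sets without a single named gene had ratios from 1.705 to 5.07. Both with a ratio over 4 are among them. Probe set 248676_at read 24.9, 15.5 and 26.8 in wild type and 175, 107 and 59.1 in the overexpressor, and 249227_at read 28.1, 23.9 and 29.1 against 283, 39.1 and 71.5. For the second of these, array a carried most of the difference, and array b lay not far above wild type.

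The arrays lettered a were read separately. Within the overexpressor, array a was the highest for 24 of the 56 and the lowest for 21, which leaves 11 with a in the middle; over all 10939 probe sets with an overexpressor mean of 100 or more, it was the highest in 44.9% and the lowest in 33.6%, so the members were near the background in both. In wild type, array a was the highest for 33 of the 56, against 38.4% of those 10939. The 5' to 3' signal ratio of the actin control, a measure of RNA integrity, came to 0.656 for wild type and 0.653 for the overexpressor on letter a, and to between 0.326 and 0.463 on the other letters, and its part in these differences was not tested.

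Ratios between the arrays of the same letter are given as a description, since the labels do not say that a letter pairs arrays. All 3 letters reached 1.7 for 13 of the 56, among them 5 named genes: OCT1, AT1G56100, AT4G36770, SWEET3 and TBL26. The choice favoured such ratios and the share over all probe sets was not taken, so nothing is read from this count. The ratios of OCT1 were 2.61, 2.28 and 3.76 for a, b and c, and those of AT4G36770 were 2.01, 2.68 and 2.84. At the other end, the ratio on letter a was 1.02 for AT5G22970, 1.04 for AT3G56610 and 1.23 for AT2G33850. AT5G52780 and AT5G12110 had their largest ratio there, 3.24 and 2.75, against at most 1.72 and 1.59 on the other letters.

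**Figure D3:**
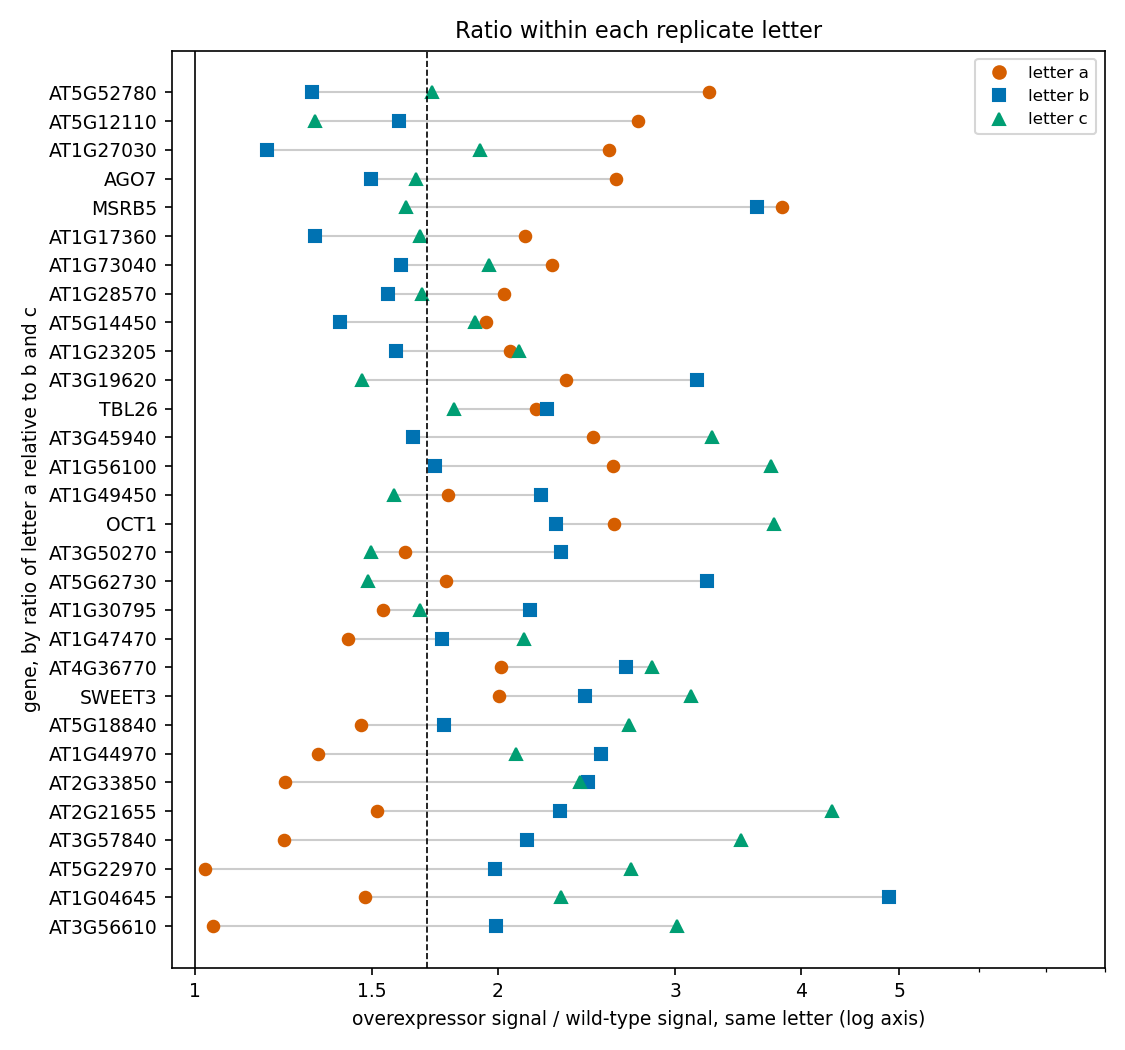
Overexpressor signal divided by wild-type signal of the same letter (x axis, log scale) for the 30 named genes, ordered by how the ratio of letter a compares with those of b and c (y axis). Circles, squares and triangles are letters a, b and c, the solid line marks 1 and the dashed line 1.7; letter a gives the lowest ratio in the lower rows, such as AT3G56610 at 1.04, and the highest in the upper rows, such as AT5G52780 at 3.24.

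Without both arrays lettered a, 45 of the 56 kept a ratio of the means of at least 1.7, and 42 still met every threshold. The other 14 hold 7 named genes, AT5G52780, AT5G12110, AT1G27030, AGO7, AT1G17360, AT1G28570 and AT5G14450, and in all 7 the ratio was largest on letter a. Leaving out arrays cannot undo the separation, so a member drops out only where letter a raised its ratio or its overexpressor mean. This pattern therefore follows largely from the choice, which used letter a. Without that letter, the ratio of the means was 1.59 for AGO7, 1.52 for AT5G52780 and 1.45 for AT5G12110. A check chosen after the data were seen asked how a letter that took no part in the choice behaves. With the genes left out by name kept in, the thresholds were met by 125 probe sets on the arrays lettered b and c alone, 10 of them from those genes, and on the arrays lettered a, 99 of these were higher in the overexpressor and 38 reached a ratio of 1.7. Over all probe sets at 100 or more on those overexpressor arrays, the shares on letter a were 63.2% higher and 2.91% at 1.7. With b left out, 97 of 112 were higher on b and 36 reached 1.7, against 53.0% and 2.38%, and with c left out, 96 of 110 were higher on c and 41 reached 1.7, against 57.7% and 2.43%. The median ratios in the letter left out were 1.43, 1.45 and 1.52 for a, b and c, below the 1.7 that the choice required. These sets are not the 56, and the letters may be technical repeats, so nothing about the 56 is read from this check.

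The limma fit across all tested probe sets called 11 of the 56 higher at an adjusted p under 0.05, beside 0.135% of all tested probe sets; 4 of the 11 are named genes, OCT1, AT1G56100, AT4G36770 and SWEET3. The same contrast chose the 56, so nothing is read from this count. With the letter as a replicate block it was 32, and without wild-type replicate b it was 0. There limma gave 49 of the 56 an unadjusted p under 0.05, against 6.84% of all tested probe sets, and this too follows from the choice. The median difference of the 56 on the log2(signal + 16) scale was 0.83. ADPG1, a polygalacturonase gene of pod and anther opening, was called higher in the fit. It lay outside the choice, because its overexpressor mean of 66.9 was below 100. Its call was lost without wild-type replicate b, and with the lowest 50% left out it was not tested.

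Values near the thresholds were close on both sides. The lowest ratio inside was 1.705, in a probe set listing several genes, followed by AT5G14450 at 1.71. The highest ratio just outside was 1.697, in 1 of 27 probe sets that met the other thresholds with ratios from 1.6 up to 1.7. On the threshold for the mean, the lowest overexpressor mean inside was 106 and the highest outside 98.8. A ratio of 1.7 without separated groups was seen in 49 probe sets with a mean of 100 or more. Among the 56, the lowest overexpressor signal was under 1.1 times the highest wild-type signal for 9, including AT5G62730, AT5G22970, AT3G56610 and AT2G33850.

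Markers of other floral tissues were read beside these genes. Of 15 mature pollen genes, 12 were named and tested. All 12 differences were below 0, 9 were called lower and 0 higher, and the list median was -2.05. Over all tested probe sets, 2.17% were called lower and 0.135% higher. The summed signal of the 12 was between 1544 and 3846 on the wild-type arrays and between 158 and 528 on the overexpressor arrays. The number of pollen genes called lower was 0 without wild-type replicate b, where the median difference of the 10 then tested was -2.49, and 0 without both arrays lettered a, with a median of -1.89. It was 3 without wild-type replicate a, and 2 without overexpressor replicate a or c, and the medians there ran from -2.21 to -1.91. None of the 12 was at 0 on every array of a group. The 433 probe sets lower by the mirrored thresholds held 3.13% to 5.54% of all signal in wild type and 0.558% to 1.05% in the overexpressor, and the 56 held 0.180% to 0.219% and 0.361% to 0.421%. Both sets were chosen on this contrast, so the direction of these shares follows from the choice. The part of pollen in the higher signals was not tested.

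Green tissue was read from 5 of 14 photosynthesis genes and the pistil from 5 tested genes of 13 for carpels and ovules, and in both lists 0 passed the limma threshold in either direction and 0 had an unadjusted p under 0.05. Their medians were 0.24 and 0.15, against 0.04 over all tested probe sets. The summed signal of the green tissue genes ran from 11775 to 16188 in wild type and from 14006 to 20535 in the overexpressor, and that of the 6 named carpel and ovule genes from 583 to 700.0 and from 699 to 798. BAN, of the early seed, had a difference of 0.45 and the clock gene GI of 0.48 (limma adjusted p of 0.638 and 0.71). The 2 named tapetum genes, of the inner anther wall, were dim on all arrays, with sums from 8.30 to 20.0. Petal and stamen identity genes and jasmonate synthesis genes were not analysed here.

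**Figure D4:**
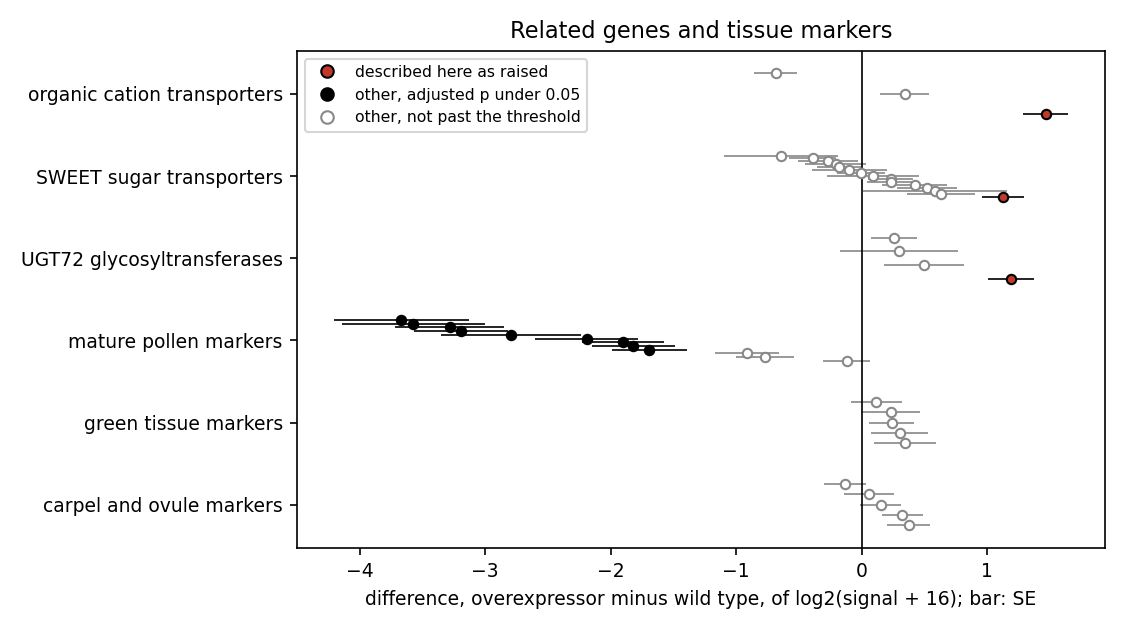
Difference between overexpressor and wild type on the log2(signal + 16) scale (x axis), with its standard error from limma, for each tested gene of 6 lists with at least 3 tested genes (y axis). Red points are OCT1, SWEET3 and AT4G36770, black points other genes past an adjusted p of 0.05 and open points the rest; the 9 black pollen markers lie between -3.67 and -1.69, and the green tissue and carpel markers between -0.13 and 0.37.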

How the data were processed

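Flower RNA was profiled on 6 arrays. The deposited values are intensities on a linear scale, 1 signal per probe set and array; the software and normalisation the authors used are not named in any source used here. Their mean without the lowest and highest 2% lay between 198.7 and 199.2 on all arrays, and array medians between 85.3 and 97.0, so no further scaling was applied. The number of arrays limits the precision.

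The 56 probe sets were found on the linear signals. For the fit, signals were put on log2(signal + 16), on which changes of low signals come out too small, the 64 controls were removed together with the dimmest 25% of the rest by their mean on that scale, and 17059 probe sets remained. R 4.3.3 with limma 3.58.1 (lmFit, eBayes) gave two-sided p-values, which were adjusted by Benjamini-Hochberg and called under 0.05. The members and lists were chosen with earlier results of these data known.

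Gene names came from the 2016 platform annotation, through gene identifiers and the RefSeq table of TAIR10.1, and all 30 single genes among the members had a locus there. A list gene with more than 1 probe set was read from the one of highest mean. Values on every array were given, by rule, for members among the 15 largest ratios, the 10 highest overexpressor means or the lists and, beyond that rule, for the other named genes. Sequences were not analysed here.

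The fit behind every printed standard error and adjusted p leaves the letters out, unless the replicate block is named. Letters were taken as pairs for that block, because deviations from the group means correlated between arrays of the same letter with r = 0.57, 0.36 and 0.38 for a, b and c, over probe sets. Alternatives were other scalings, pseudocounts, filters and thresholds, array weights, the letter as a block, and arrays left out.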

Additional observations from a re-analysis of the deposited data

Results flagged for a closer look

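A control outside all comparisons, the probe set for 25S ribosomal RNA, stood at 3079.6 on overexpressor array a, against 29.6 and 51.2 on the other overexpressor arrays and 11.1 to 32.6 in wild type. Among the 30 named genes described here, 9 were highest and 13 lowest on that array within the overexpressor. Among all 56 probe sets, 24 were highest and 21 lowest there. Over the 10939 probe sets with an overexpressor mean of 100 or more, the shares were 44.9% and 33.6%. The part of that array's RNA in the values of the 56 was not tested.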

How the results depend on the processing

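The choice of 56 probe sets depends on its limits and on single arrays. A minimum ratio of 1.5 gave 128 probe sets and one of 2 gave 22, a minimum mean of 200 gave 30, and leaving out both arrays lettered a gave 115, of which 42 are among the 56. With 1 array left out, between 66 (without wild-type replicate b) and 153 (without wild-type replicate a) met the thresholds, with 116 without overexpressor replicate b and 86 without overexpressor replicate c; between 38 (without overexpressor replicate a) and 51 of the 56 were among them. Fewer arrays are easier to separate. Quantile normalisation kept 54 of the 56 and median centring 55.

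In the limma fit, 23 probe sets were higher, 370 lower and 11 of the 56 called higher. A pseudocount of 1 gave 13, 209 and 6, a pseudocount of 64 gave 7 of the 56, and leaving out the lowest 50% gave 180 lower and 7 of the 56. The letter as a replicate block gave 71, 570 and 32, array weights 39 higher and 21 of the 56, and leaving out both arrays lettered a 9, 84 and 4. Leaving out single arrays gave 0 to 16 higher, 30 to 386 lower and 0 to 9 of the 56. The lowest counts came without wild-type replicate b, and among the 56 the count was 5 without replicate a of wild type, 3 without replicate c of wild type and 2 without replicate c of the overexpressor. Beyond the number of arrays or probe sets, the cause was not tested.

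Of the genes in the lists, 13 were called. In alternatives added after seeing the data, a pseudocount of 1 gave 7, no filter on low values 8, leaving out the lowest 50% 7, leaving out both arrays lettered a 2, and leaving out single arrays 0 (without wild-type replicate b) to 12. The replicate block gave 13. Fewer of the list genes were tested with the lowest 50% left out.

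Under the scalings, pseudocounts and left-out arrays tried, the differences of the 30 named genes ran from 0.42 to 1.71; because the choice required separated groups, leaving out an array or changing the pseudocount could not turn their sign. Dim genes are limited by the pseudocount.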
